A study of Mus musculus with 4 samples.

Results

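The differentiation of stem cells into motor neurons was followed in a mouse line that lacks a pair of CTCF sites in the HoxA cluster, by the insulation score of each restriction fragment over a region of chromosome 6 that runs from 50194861 to 53993599. A fragment was a member if it scored above 0 in both libraries of the deletion line, matched by start and end, and 461 of the 479 listed HindIII fragments met this rule. The other 18 were listed at 0 in both. The value described is the log2 ratio of the score in motor neurons (MN) over that in embryonic stem cells (ESC). Coordinates are those of the files on mm9, the build named in the submitters' processing notes.

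The 4 libraries came from 5C (chromosome conformation capture carbon copy, which reads ligated pairs of restriction fragments through a pool of primers). They are WT ESC, ESC of the line labelled Δ5|6:7|9, WT MN and MN of that line, with 1 library each. All cultures started as ESC in medium with Lif, a MEK inhibitor at 1 µM and a GSK3 inhibitor at 3 µM. The MN cultures were then grown as embryoid bodies, with retinoic acid at 1 µM and smoothened agonist at 0.5 µM from day 2. By its label the line lacks a site in the Hoxa5 to Hoxa6 interval and another in the Hoxa7 to Hoxa9 interval, the sites the study is known to treat as CTCF sites. No source used here states how the line was made or whether it is 1 clone. A 5C table holds no transcript, so the identity of the MN cultures could not be checked against marker genes.

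The 11 Hox genes of HoxA code for homeodomain transcription factors that set position along the body axis. Their order along the chromosome follows the order in which they act along the body axis, and genes at the Hoxa13 end act towards the tail. In neural cells differentiated with retinoic acid part of the cluster is known to become active while the Hoxa13 end stays under Polycomb repression, and CTCF bound between the genes is known to hold these domains apart. In RefSeq's GRCm38.p6 order, with rising coordinate, the cluster runs from Skap2 (an adaptor protein gene) through the Hox genes, with Hoxa13 last, and on to Evx1 (a homeobox gene) and Hibadh (an enzyme gene of valine breakdown). The files pair no gene with a fragment and no mm9 annotation was used, so fragments are placed by coordinate and by side of the cluster. The HoxA fragments below are the 23 from 52102714 to 52253465. How far this stretch runs past the outermost genes was not checked.

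The sequences below come from the intervals that the deletion label names. Hoxa5 and Hoxa7 are read on the minus strand, so the 250 bases before their starts lie on the side of Hoxa6 and of Hoxa9. They are RefSeq's GRCm38.p6 sequence, at chr6:52204588-52204837 and chr6:52218574-52218823 of that build, and these positions cannot be set against the mm9 fragments. Capitals mark GGTGGC, letters found at the core of many CTCF motifs, or their complement, searched on both strands and chosen with these windows in view. A longer pattern that contains these letters was searched first and matched the Hoxa5 window alone among the HoxA windows; the shorter one was then used.
Hoxa5: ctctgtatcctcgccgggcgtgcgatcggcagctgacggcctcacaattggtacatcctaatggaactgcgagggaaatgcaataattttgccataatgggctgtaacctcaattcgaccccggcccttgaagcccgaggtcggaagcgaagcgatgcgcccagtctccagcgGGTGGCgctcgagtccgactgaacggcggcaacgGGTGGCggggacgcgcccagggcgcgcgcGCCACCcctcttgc
Hoxa7: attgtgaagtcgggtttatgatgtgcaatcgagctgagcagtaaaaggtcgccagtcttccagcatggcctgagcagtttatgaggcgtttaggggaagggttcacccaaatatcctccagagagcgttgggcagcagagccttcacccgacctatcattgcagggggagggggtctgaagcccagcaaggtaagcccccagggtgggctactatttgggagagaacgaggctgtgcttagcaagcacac

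The letters occurred 3 times in the Hoxa5 window, with no overlap, and are not in the Hoxa7 window. Of the 10 windows held for 9 HoxA genes, 2 had a match, the other being that of Hoxa11. Of all 32851 RefSeq windows of this length 17.9% had one. A match describes letters and is not a measured binding site. No source used here states whether the deleted sites lie inside these windows.

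Scores averaged 1.00 in every library, so each is read against the mean of its own profile. The scores ran from 0.375 to 1.92 in deletion-line ESC and from 0.299 to 1.95 in deletion-line MN. No source used here states which way the score runs. By the usual convention few contacts cross a fragment with a low score, and a local minimum marks a boundary. The scored fragments had a median length of 5609 bp, from 301 to 42463 bp, and 111 gaps separated listed neighbours. The deletion-line MN table stands apart in how its numbers are written. With 1 exception, a deletion-line MN score that ends in a run of nines, scores are written to at most 9 decimals or to 10, and where the extra decimal is present it is a 5, the form that a mean of 2 values with 9 decimals can take. It occurs in 223 scores of deletion-line ESC, 217 of WT ESC and 247 of WT MN, and in 0 of deletion-line MN. The deletion-line MN scores may not combine 2 replicates as the others do, or may have been rounded differently. The sources used here do not settle which. Every MN over ESC ratio of the deletion line rests on this table, and the part of this in the results was not tested. With 1 library a side no value below has a replicate check, and the depth behind a score is unknown.

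The question put to the deletion line is which boundary HoxA has after differentiation when the sites are absent. In deletion-line MN the lowest fragment of HoxA lay on the Hoxa13 side, at chr6:52203349-52209630, with a score of 0.346, the second lowest of the 461. No local minimum was found in the middle of the cluster, where the lowest fragment of WT MN lay. A low stretch on the Hoxa13 side was not limited to the deletion line. WT ESC had its lowest HoxA fragment there, at 52190054 to 52203348, with a score of 0.430 and a prominence of 1.78. Prominence is the height in log2 score that separates a minimum from the next lower one, and minima were called at 0.25 or more. WT MN had a dip at 52203349 to 52209630 itself, with a score of 0.437, whose prominence of 0.243 narrowly missed a call. In deletion-line MN a separate, shallower minimum stood at the opposite end of the cluster, facing Skap2. Between these ends the score kept a crest above 1.

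**Figure D1:**
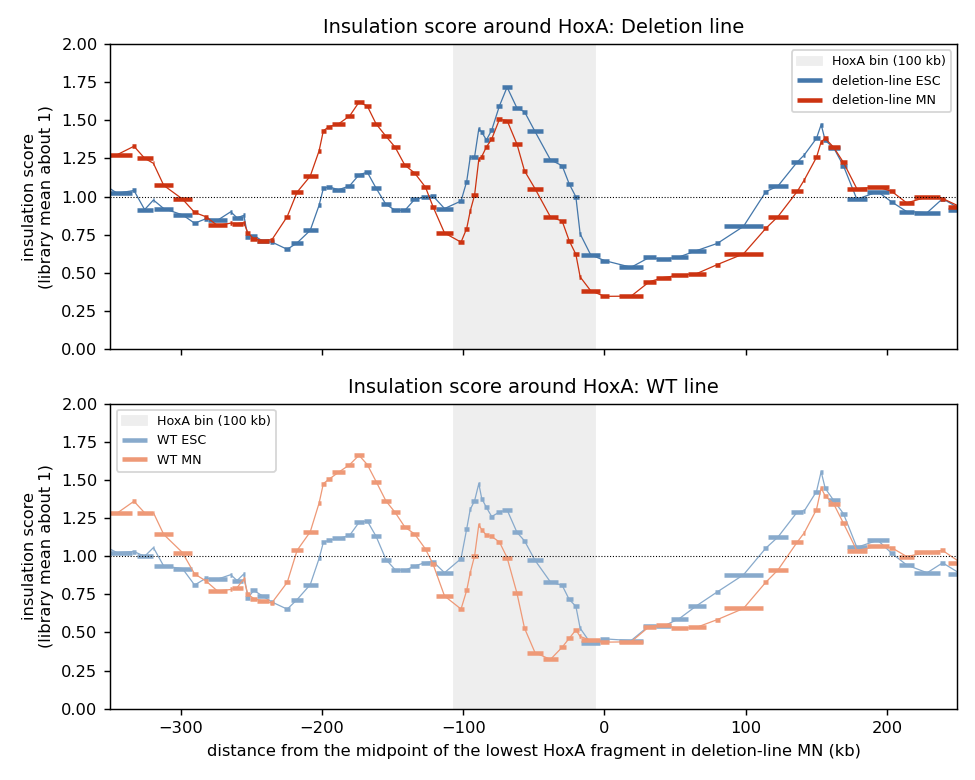
Insulation score of each fragment (y axis, library mean about 1) against distance in kb from the midpoint of the lowest HoxA fragment of deletion-line MN (x axis), with the deletion line above and WT below; bars span fragments and the grey band is the 100 kb HoxA bin. In the deletion line the MN profile runs below the ESC profile across HoxA with its low point at 0.346, while WT MN has its low point inside the band at 0.323.

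A Hoxa13-side minimum was present before differentiation. In deletion-line ESC its lowest fragment was chr6:52217060-52233685, with a score of 0.537 and a prominence of 1.68. In deletion-line MN the minimum had a prominence of 2.22. The lowest fragments of the states lay 18.9 kb apart by midpoint, with an unlisted stretch of 7.43 kb between them. Matched within 20 kb they count as the same minimum, and within 10 kb as a lost and a gained one. Scores of 0.384, 0.346 and 0.348 at the 3 fragments from 52190054 to 52233685 lay within 1.2-fold of the lowest. The low point of MN is therefore flat over 43.6 kb, and its place inside that stretch was not resolved.

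At the Hoxa13 side the score was lower in MN at each of the 7 fragments from 52183982 to 52253465, and the mean log2 ratio was -0.60 (SD 0.15 across fragments). The fragment 52183982 to 52188538 had a score of 0.998 before and 0.622 after differentiation. Its neighbour 52188539 to 52190053 had 0.756 before and 0.474 after. These fragments form the slope down to the minimum in both states. The fragment 52190054 to 52203348 had 0.619 before and 0.384 after. The later low point, 52203349 to 52209630, had 0.581 before and 0.346 after, 1.68-fold lower. The earlier low point, 52217060 to 52233685, had 0.537 before and 0.348 after. Counted from the lowest of the region, these 3 fragments ranked 25, 13 and 9 in ESC and 5, 2 and 4 in MN. Beyond them the log2 ratio was smaller, with -0.45 at 52233686 to 52242792 and -0.32 at 52242793 to 52253465.

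The middle of the cluster behaved as a slope and not as a minimum. Over the 5 fragments from 52148204 to 52183981 deletion-line ESC averaged 1.30 and deletion-line MN 0.928, and the log2 ratios averaged -0.50 (SD 0.077). The fragment 52151568 to 52163061 went from 1.43 to 1.05. Its neighbour 52163062 to 52173421 went from 1.24 to 0.867. In both states the score went down step by step across these fragments towards the Hoxa13 side. In WT the neighbour was the lowest fragment of the region in MN, at 0.323 from 0.831 in ESC. The lowest fragments of deletion-line MN and WT MN lay 38.2 kb apart, and those of WT ESC and WT MN 28.5 kb apart.

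Of the 4 segments of the cluster the crest had the smallest mean change. Over the 7 fragments from 52116908 to 52148203 ESC averaged 1.51 and MN 1.37. The log2 ratios averaged -0.14 (SD 0.078), and no fragment was 1.2-fold lower. The segments were set after the values were seen, and the borders of the crest fall where the 1.2-fold call changes. The small mean change and the lack of a call therefore follow in part from where the borders were put. The highest fragment was 52134173 to 52140923 in ESC, with a score of 1.72. In MN the highest was its neighbour, 52130049 to 52134172, with 1.51. The smallest change of the cluster was at 52121063 to 52124760, with a log2 ratio of -0.049. From crest to low point the score spanned 3.20-fold in ESC and 4.35-fold in MN.

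At the Skap2-side edge MN had a minimum, and ESC had a shallow dip at the fragment before it. The first fragment of the cluster, 52102714 to 52107157, went from 0.971 to 0.701, and the MN minimum there had a prominence of 1.10. The second, 52107158 to 52110706, went from 1.10 to 0.790. Over the 4 fragments from 52102714 to 52116907 the mean log2 ratio was -0.43 (SD 0.077). The nearest ESC minimum, at 52061549 to 52068772 with a score of 0.910 and a prominence of 0.35, lay 39.8 kb away by midpoint, and the dip at 52087189 to 52099306 (0.921) had a prominence of 0.12, below the limit for a call. The MN minimum therefore counts as gained when minima are matched within 20 kb and as shifted when they are matched within 40 kb. WT MN also had a minimum at this fragment, with a score of 0.653. It matched a called minimum of WT ESC at 52087189 to 52099306, with a score of 0.892 and a prominence of 0.46, so in WT it does not count as gained.

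Beyond the first fragments of the cluster, the stretch facing Skap2 differed in the opposite direction. The 14 fragments from 51979635 to 52068772 averaged 0.959 in ESC and 1.35 in MN, with log2 ratios from 0.41 to 0.56. The highest of them in MN, 52029330 to 52036021, went from 1.14 to 1.62. From there to the first HoxA fragment the MN score stepped down from 1.62 to 0.701, where ESC went from 1.14 to 0.971. The deletion line and WT differed by 0.039 in their mean log2 ratio over this stretch.

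The width of the low stretch at the Hoxa13 side was read as the run of fragments with a score under 1, the library mean, a measure chosen after the profiles were seen. In deletion-line ESC it ran from 52183982 to 52319093, over 135 kb and 11 fragments. In deletion-line MN it ran from 52163062 to 52336183, over 173 kb and 16 fragments. In WT the runs were 168 kb in ESC and 202 kb in MN. The WT MN run takes in the minimum in the middle of the cluster. Its length and its edge inside the cluster therefore do not describe the Hoxa13 side alone. The low stretch was longer in MN in both lines, and in each state it was shorter in the deletion line than in WT, at this level and at levels of 0.8, 0.9 and 1.2. How far each edge moved depended on the level. The edge inside the cluster lay 20.9 kb lower in MN of the deletion line at a level of 1, where the ESC edge fragment scored 0.998, and from 9.47 to 30.9 kb lower over the 4 levels. In WT it lay from 17.4 to 38.1 kb lower. The edge towards Evx1 and Hibadh lay from 12.6 to 34.0 kb higher in the deletion line and from 3.43 to 30.6 kb higher in WT.

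Counts over the region give the background for these values. In the deletion line 65 of 461 fragments (14.1%) were at least 1.2-fold lower in MN and 52 (11.3%) were at least 1.2-fold higher. In WT the shares were 10.8% lower and 11.9% higher. Of the 23 fragments from 52102714 to 52253465, 16 were at least 1.2-fold lower and none was higher, and the score was lower in MN at each of them. Their median log2 ratio was -0.45, against -0.018 over all 461 fragments. At least 1.5-fold lower were 9 fragments of the region (1.95%), of which 6 lay among these 23, and 0% were 1.5-fold higher. The mean over the 100 kb HoxA bin, the 19 fragments from 52102714 to 52203348, was -0.38 (SD 0.21), against -0.0035 (SD 0.20) in the 395 fragments with midpoints over 200 kb from the bin. The bin ended below the lowest fragment. On a grid of 100 kb, the bin above it had the lowest mean of the 38 bins at -0.45, and the HoxA bin was next. The highest mean, 0.35, was that of the bin just before the cluster. Lower scores over HoxA in MN were shared by WT. There, 13 of the 23 fragments were at least 1.2-fold lower and 8 at least 1.5-fold lower, and the score was lower at 21. Their median log2 ratio in WT was -0.38. The WT mean was -0.54 (SD 0.41) over the HoxA bin, -0.14 over the bin above it and 0.33 over the bin just before the cluster.

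**Figure D2:**
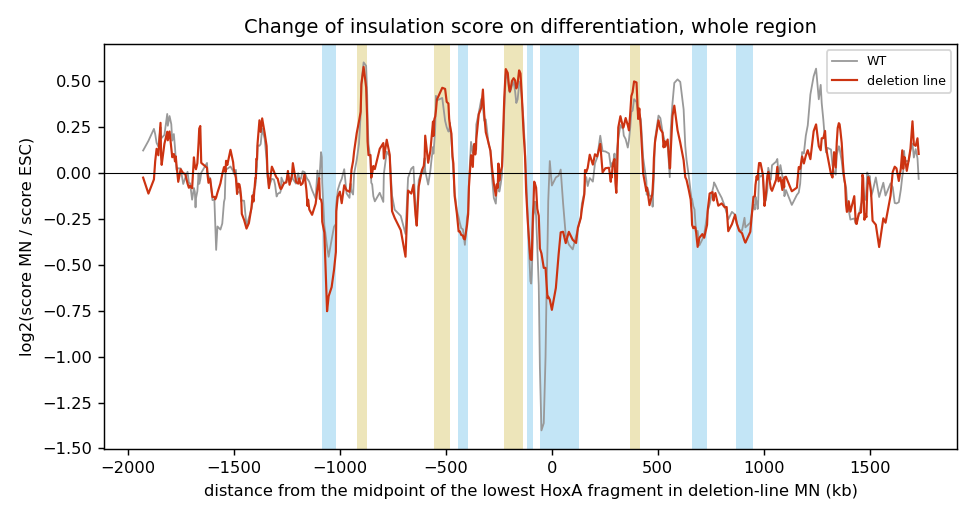
Log2 ratio of the score in MN over ESC (y axis) along the whole region as distance in kb from the lowest HoxA fragment of deletion-line MN (x axis), for the deletion line (red) and WT (grey); yellow and blue bands mark the 4 higher and 6 lower stretches of the deletion line. The gap between the lines is widest at 52151568 to 52163061, below 0 kb, with -1.40 in WT and -0.44 in the deletion line. At 0 kb the order is the other way, with -0.070 in WT and -0.75 in the deletion line.

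By stretches of at least 5 consecutive fragments with a log2 ratio of 0.25 or more in size, the deletion line had 4 higher stretches with 37 fragments and 6 lower stretches with 53. Adjacent log2 ratios correlated at 0.93 (Pearson, 460 pairs that share neighbouring contacts), so stretches and not single fragments are the unit here. The longest was lower and ran over 18 fragments and 188 kb, from 52148204 to 52336183, with a mean of -0.49 (SD 0.15). It took in the middle of the cluster, the Hoxa13 side and sequence beyond it. The largest of the higher stretches was that facing Skap2. The others were 51288489 to 51335370 (mean 0.40), 51647798 to 51727576 (0.36) and 52573410 to 52620709 (0.40). The 2 lower stretches of HoxA were separated by the crest, and the one at the Skap2-side edge had a mean of -0.40 over 5 fragments. Lower stretches elsewhere were 51765545 to 51810569 (-0.33), 52867808 to 52939624 (-0.32) and 53074836 to 53153880 (-0.33). WT means over these same stretches had the same signs. The longest had -0.44 in WT, a mean that hides the differences by fragment given below. The stretch facing Skap2 had 0.45, and the other higher stretches had 0.43, 0.29 and 0.33 in the order above. The stretch at the Skap2-side edge had -0.49, and the lower stretches elsewhere had -0.30, -0.28 and -0.29.

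The remaining lower stretch, 51120427 to 51187688, lay about 1 Mb below the cluster beside the deepest minimum of the region. It had a mean log2 ratio of -0.51 (SD 0.18, 7 fragments), against -0.31 in WT. The largest decrease of all fragments was in it, at 51140456 to 51149556, which went from 0.701 to 0.416, 1.69-fold lower. The minimum beside it, 51123835 to 51140455, went from 0.375 to 0.299. Of the 10 largest decreases of the deletion line, 4 lay in this stretch and 6 on the Hoxa13 side and upper middle of HoxA. Of the 10 largest increases, 7 lay in the stretch facing Skap2, with log2 ratios from 0.50 to 0.56. The other increases were at 51309849 to 51325297 (0.58), 52588662 to 52600674 (0.50) and 52602236 to 52609970 (0.49).

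**Figure D3:**
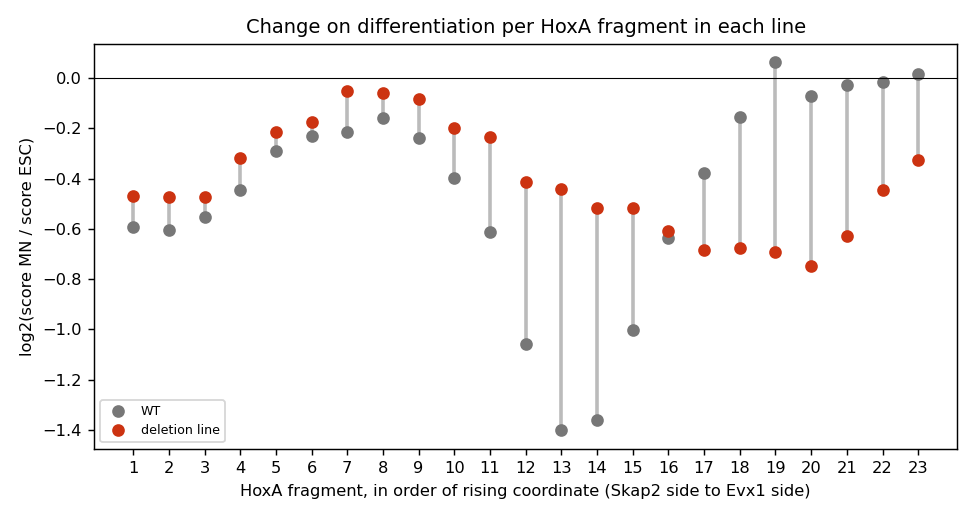
Log2 ratio of the score in MN over ESC (y axis) at the 23 fragments from 52102714 to 52253465 in order of coordinate (x axis), with 1 point for the deletion line (red) and 1 for WT (grey) per fragment, joined by a bar. The deletion line lies above WT at fragments 1 to 16 and below it at fragments 17 to 23.

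The change was then set against that of WT, which uses separate libraries. The difference, deletion line minus WT on the log2 scale, was above 0 at the first 16 of the 23 HoxA fragments and below 0 at the last 7. Over all 461 fragments the difference was above 0 at 234. Its SD was 0.11 over the 395 fragments with midpoints over 200 kb from the bin. From 52102714 to 52140923 the difference was at most 0.20. In the middle its mean was 0.59, from a mean log2 ratio of -0.50 in the deletion line and -1.09 in WT. At the Hoxa13 side its mean was -0.52, from -0.60 in the deletion line and -0.081 in WT. The border between these segments was set after the values were seen and falls where the sign of the difference turns. The opposed signs of these means therefore follow from the border. The lines already differed in ESC, so the difference takes in their starting levels. At the Hoxa13 side ESC averaged 0.669 in the deletion line and 0.517 in WT, and MN averaged 0.441 and 0.486. In the middle ESC averaged 1.30 in the deletion line and 0.886 in WT, and MN averaged 0.928 and 0.417. The sign of the difference turned between 52179068 to 52183981, where the log2 ratios were -0.61 and -0.63, and 52183982 to 52188538, where they were -0.68 and -0.38. With the border put at this turn, the mean change of the deletion line was larger at the Hoxa13 side and that of WT was larger in the middle. Over the whole region the difference was at least 1.2-fold higher at 10 fragments (2.17%), of which 5 were among the 23. It was at least 1.2-fold lower at 18 (3.9%), of which 7 were among the 23. Of these 7, 3 lay in the 100 kb HoxA bin and the others just above it. With 1 library per group a test of this difference has no residual degree of freedom.

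The 5 largest positive differences were neighbours in the upper crest and the middle. They were 0.96 at 52151568 to 52163061, 0.84 at 52163062 to 52173421, 0.65 at 52148204 to 52151567, 0.49 at 52174043 to 52179067 and 0.38 at 52140924 to 52148203. The 5 largest negative ones were neighbours at the Hoxa13 side. They were -0.75 at 52190054 to 52203348, -0.68 at 52203349 to 52209630, -0.60 at 52217060 to 52233685, -0.52 at 52188539 to 52190053 and -0.43 at 52233686 to 52242792. Across the 23 fragments the log2 scores of ESC and MN had a Pearson correlation of 0.97 in the deletion line and 0.76 in WT. The points are neighbouring fragments of the same libraries, so these are descriptions of shape.

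Over the whole region 26 minima were called in deletion-line ESC and 25 in deletion-line MN. Within 20 kb 19 of them matched, 15 at the same fragment, so 6 were gained and 7 were lost. These counts depend on the distance, and within 40 kb 2 were gained and 2 were lost. Of the 19, 10 had a higher prominence in MN and 9 a lower one. The Hoxa13-side minimum ranked second in both states. Its prominence was 0.55 higher in MN, the second largest gain after that at 53095876 to 53112781, which went from 0.40 to 1.11. The deepest minimum, 51123835 to 51140455, went from 2.12 to 2.54. The largest loss was at 51309849 to 51325297, from 1.11 to 0.50.

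**Figure D4:**
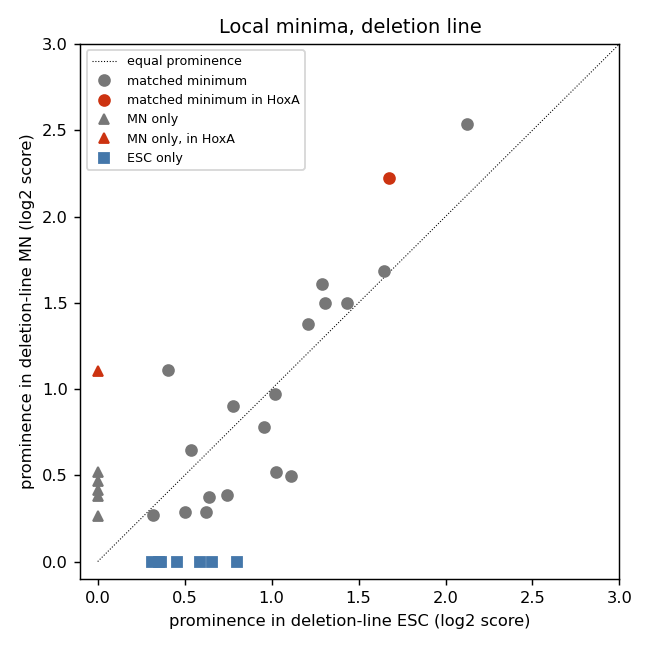
Prominence of local minima in deletion-line MN (y axis) against deletion-line ESC (x axis), both in log2 score; circles are the 19 matched minima, triangles at x = 0 the 6 called in MN only, and squares at y = 0 the 7 called in ESC only. The HoxA points (red) are the matched minimum at 1.68 and 2.22 and the gained one at 1.10.

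The gained minimum at the Skap2-side edge of HoxA had the highest prominence of the 6. The next 4 were 52449470 to 52468785 (0.52), 52802587 to 52822761 (0.47), 53318659 to 53360229 (0.41) and 52921148 to 52930277 (0.38). The 5 lost minima of highest prominence in ESC were 52780718 to 52788549 (0.80), 53449496 to 53458518 (0.66), 52425692 to 52444350 (0.59), 51419287 to 51434076 (0.46) and 52947116 to 52955718 (0.36). Of these, 3 gained minima lay near a lost one by midpoint, and these pairs match at 40 kb. The distances were 24.1 kb between 52449470 and 52425692, 28.0 kb between 52802587 and 52780718, and 25.7 kb between 52921148 and 52947116. None of the lost minima lay in HoxA.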

How the data were processed

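Each deposited table gives 1 combined insulation score per HindIII fragment, made by the authors with a script that the file headers name. Per the labels' protocols, cells were fixed in 1% formaldehyde and each 5C library drew on 2 biological replicates of 3C. Whether the deletion-line MN scores combine both was not settled. Bowtie 1 and mm9 appear in the submitters' processing notes. No source used here states how primers were filtered, contacts normalized, the score's window set or replicates combined. The ESC tables have no column header, so the score column was identified by its place in the MN tables.

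Tables were joined by start and end, and log2 ratios were taken with no pseudocount. Minima of the log2 profile were called (scipy 1.17.1) at a prominence of 0.25 and matched within 20 kb. Named were the 10 largest changes each way, the fragments from 52102714 to 52253465, the 5 most prominent gained and 5 lost minima, the 5 largest differences from WT each way, and the stretches. The segments of HoxA were set after the values were seen. Members and lists were chosen with earlier results of these data known. The calling code was run on simulated data, with a dip planted on a flat profile with small independent noise and with changes planted without noise. The deposited profiles are uneven and their neighbours dependent, so this checks the code and not the calls made here. No test between groups was run, since each has 1 library.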

Additional observations from a re-analysis of the deposited data

Results flagged for a closer look

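At 7 fragments the score changed in opposite directions in the lines, with a difference of at least 1.2-fold between the changes. With 1 library per group the difference was not tested at any of them. At 52190054 to 52203348, on the Hoxa13 side of HoxA, the log2 ratio of MN over ESC was -0.69 in the deletion line and 0.063 in WT, a difference of -0.75. At 52242793 to 52253465, beyond the low point, it was -0.32 and 0.017, a difference of -0.34. The other 5 lay far below the cluster. The differences were -0.29 at 50280337 to 50322799, -0.27 at 50322800 to 50332115, 0.30 at 50539321 to 50543480, 0.29 at 50543481 to 50549225 and 0.32 at 51408882 to 51412357. No group had enough samples for a check of outlying samples.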

How the results depend on the processing

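Of 41 recomputed values 31 were judged the same and 10 moved. HoxA bin values had to stay within the spread of 100 kb bins, and counts and lengths within 1.5 times. The low point had to keep its fragment. Only the HoxA bin values could reverse in sign, and none did. The trough levels were added after seeing the data. The low point stayed at 52203349 to 52209630 with a running mean of 3 fragments, at a prominence of 2.14. The other alternatives could not move it, because prominence limits of 0.15 and 0.4 leave the scores as they are and quantile normalization keeps their order. Under quantile normalization its prominence was 2.07, against 2.22 in the main setting. The HoxA bin mean (-0.38) was -0.090 with the bin moved 50 kb lower and -0.57 with it moved 50 kb higher. Gained minima (6) numbered 10 when matched within 10 kb and 2 within 40 kb. Lost minima (7) numbered 11 and 2 at those distances and 13 at a prominence of 0.15. Higher stretches (4) numbered 7 at a limit of 0.15 and 1 at 0.4, and lower stretches (6) numbered 2 at 0.4. Apart from fewer or more features passing a looser or stricter limit, the cause was not tested. No paired analysis was possible because each group has 1 library. Depth is unknown, so no counting error is given.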
